A study of Mus musculus with 8 samples.

Results

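The CD-named surface antigens are the mouse genes whose symbol is Cd followed by a number and, in some, a short suffix. CD stands for cluster of differentiation, the numbering under which leukocyte antigens were grouped by the antibodies that bind them. The symbol alone chose the genes: 88 of the 22558 symbols in the tables have this form, after 8 symbols of the same or a similar form were left out by name (Cd74, Cd9, Cd63, Cd163, Cd209a, Cd2ap, Cd2bp2 and Cd3eap). They were measured in 4 libraries of macrophages that had infiltrated the retina, numbered 5 to 8, and in 4 libraries of microglia, which are the macrophages that reside in neural tissue from development on, numbered 1 to 4. Every mouse in both groups carried Msi1-CreERT2/+, a tamoxifen-inducible Cre expressed from Msi1, and R26R-DTA/+, from which Cre releases diphtheria toxin A and so ablates the cells it acts in. All were of a mixed C57BL/6 and 129 background, about 5 months old, and their retinas were taken on day 7 after injury. Uninjured retina is not analysed here, so the comparison is between 2 cell populations of the same injured tissue. The labels do not say which cells Cre reached, what GFP marks in the titles of the macrophage libraries, or whether each library is an animal of its own. The p-values below therefore measure only library-to-library spread, part or all of which may be technical.

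A CD number says that an antibody recognises the antigen, not what the antigen does, and the group therefore holds unrelated proteins. Tetraspanins such as Cd81 and Cd37 span the membrane several times and hold other receptors together in patches; Cd14 and Cd36 bind microbial products and lipids; Cd80, Cd86 and Cd40 send or receive signals between antigen-presenting cells and T cells. The Cd300 and Cd200 receptors raise or lower the activity of myeloid cells, and the Cd3, Cd79 and Cd8 proteins belong to the antigen receptors of lymphocytes. Cd68 lies mostly in lysosomes and Cd5l is secreted, so a CD symbol does not always mean a protein at the cell surface.

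Infiltrating macrophages carried less RNA than microglia for the tetraspanins Cd81 and Cd37 and for Cd34, a sialomucin of blood progenitors and endothelium. They carried more of Cd97, an adhesion G protein-coupled receptor, and of Cd300e, an activating receptor of the Cd300 family. Values are FPKM, the number of fragments divided by transcript length and by the mapped fragments of the library, so levels of different genes are compared per length. A gene was tested if 4 or more of the 8 libraries held it at 1 FPKM or above; the test was run with limma on log2(FPKM + 1), and a gene is said to be called at a Benjamini-Hochberg adjusted p below 0.05 over all genes tested. Of the 88 CD-named genes 45 passed the filter, and 5 of these were called, 2 higher and 3 lower in macrophages. That is 11.1% of the 45, against 2.34% of all 9352 genes tested (4.44% against 1.65% for higher calls and 6.67% against 0.695% for lower ones). Cd300e and Cd200 passed the filter through the 4 macrophage libraries alone and so had to lie higher there. Without genes that passed through 1 population alone, 1 of 43 CD-named genes was called higher and 3 lower, against 1.01% and 0.543% of 9213 genes. That higher call was Cd97, which among microglia reached 1 FPKM in microglia 2 alone (4.68 FPKM). Its 4 macrophage libraries would have sufficed for the filter, so this count is not free of the filter either. In bulk libraries such as these, fewer cells of a type and less RNA per cell cannot be told apart.

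The sequence upstream of the annotated start is shown for the called genes, since Cd34, Cd37 and Cd81 were lower together. RefSeq entries on build GRCm38.p6 were found for 4 of the 5, and Cd97 had no entry in the table. Each line holds the 250 bases before the start, 5′ to 3′ on the gene's strand. Capitals mark AGGAAGT, a core of ETS factor sites, on either strand (ACTTCCT on the other), and GGGCGG, the GC box (CCGCCC on the other). The first 3 genes were lower in macrophages, and the last was higher. The regions are chr1:194938571-194938820 (plus strand) for Cd34, chr7:45238840-45239089 (minus strand) for Cd37, chr7:143052500-143052749 (plus strand) for Cd81 and chr11:115062040-115062289 (minus strand) for Cd300e.
Cd34: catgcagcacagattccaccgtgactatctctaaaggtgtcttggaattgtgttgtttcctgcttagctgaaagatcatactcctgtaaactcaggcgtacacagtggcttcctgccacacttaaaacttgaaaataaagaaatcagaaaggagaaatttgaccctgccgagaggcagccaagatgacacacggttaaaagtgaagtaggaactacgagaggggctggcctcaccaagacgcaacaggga
Cd37: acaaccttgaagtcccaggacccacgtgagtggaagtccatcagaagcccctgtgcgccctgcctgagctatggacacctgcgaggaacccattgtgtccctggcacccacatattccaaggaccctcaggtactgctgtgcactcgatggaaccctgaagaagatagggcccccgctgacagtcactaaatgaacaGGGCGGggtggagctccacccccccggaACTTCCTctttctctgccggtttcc
Cd81: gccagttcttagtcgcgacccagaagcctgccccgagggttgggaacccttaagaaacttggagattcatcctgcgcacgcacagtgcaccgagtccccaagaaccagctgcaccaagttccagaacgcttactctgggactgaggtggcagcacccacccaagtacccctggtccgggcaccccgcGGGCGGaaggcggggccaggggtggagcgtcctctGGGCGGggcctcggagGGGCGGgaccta
Cd300e: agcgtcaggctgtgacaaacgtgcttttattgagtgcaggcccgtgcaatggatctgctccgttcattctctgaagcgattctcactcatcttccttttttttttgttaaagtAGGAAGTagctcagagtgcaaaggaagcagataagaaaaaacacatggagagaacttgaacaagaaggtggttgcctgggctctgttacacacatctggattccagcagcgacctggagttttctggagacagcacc
The ETS core occurred once each upstream of Cd37 and Cd300e, and in 7.69% of all 32851 RefSeq promoter windows of this length. The GC box occurred 3 times upstream of Cd81 and once upstream of Cd37, and in 32.7% of windows. Neither motif was found upstream of all 3 genes that were lower, and a match or its absence describes these letters only.

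In the libraries as a whole, FPKM summed to between 207077 and 512049 in macrophages, with macrophage 7 lowest and macrophage 6 highest, and to between 295881 and 392753 in microglia. A depth estimated from the smallest repeated values was between 21.8 and 24.6 M fragments in macrophages and between 11.7 and 21.1 M in microglia. A single fragment of a 2 kb transcript then corresponds to between 0.0220 and 0.0248 FPKM in macrophages and between 0.0257 and 0.0463 in microglia, and differences near that level were not detectable. Between 8814 and 10282 genes reached 1 FPKM in macrophages, against 5992 in microglia 2 and 8165 to 9505 in the other microglial libraries. Marker lists followed the labels in part: 10 monocyte and recruited macrophage genes summed to between 307.5 (macrophage 7) and 1904 FPKM in macrophages and between 109 and 153 in microglia, while 10 microglial genes summed to between 700.3 and 2397 FPKM in macrophages and between 2638 and 4028 in microglia. Neutrophil genes summed to between 42.4 and 241.5 FPKM in macrophages, mostly S100a8 and S100a9, and to at most 1.36 in microglia. Of the same list, Ngp and Camp were listed at 0 in every macrophage library. Red cell genes summed to between 0.693 and 23.7 FPKM in macrophages and to 160, 165, 2437 and 0.683 in microglia 1 to 4. Y-linked RNA summed to at most 1.97 FPKM in macrophages and to 25.8, 11.7, 16.5 and 0.0533 in microglia 1 to 4. Xist, transcribed from the X chromosome, went the other way. It stood at no more than 0.000779 FPKM in microglia 1 to 3, at 4.78 in microglia 4 and between 4.84 and 7.94 in macrophages. So 3 microglial libraries differ from the rest in a way that runs with the comparison. When Y-linked expression was added to the fit as a covariate, 0.267% of genes were called (0.182% higher and 0.0855% lower). Of the 45 CD-named genes this fit called Cd34 only, lower, and its values stand beside each called gene. Because the Y-linked term largely runs with population, a call lost with it does not show that the difference is absent.

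Summed over the 88 genes, CD antigen RNA came to 2851, 6189, 2619 and 2250.4 FPKM in macrophages 5 to 8, against 7422, 11214, 7396 and 8092 in microglia 1 to 4. The populations did not overlap in this sum, nor in its share of all FPKM, which was 0.948%, 1.21%, 1.26% and 0.929% in macrophages and 2.48%, 3.22%, 1.88% and 2.73% in microglia. Cd52, Cd81 and Cd68 made up between 49.8% and 70.0% of the sum in macrophages and between 77.4% and 87.6% in microglia. The other 85 genes summed to 1065, 1925, 785 and 1129 FPKM in macrophages and to 1422, 1385, 1204 and 1826 in microglia, ranges that overlap.

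**Figure D1:**
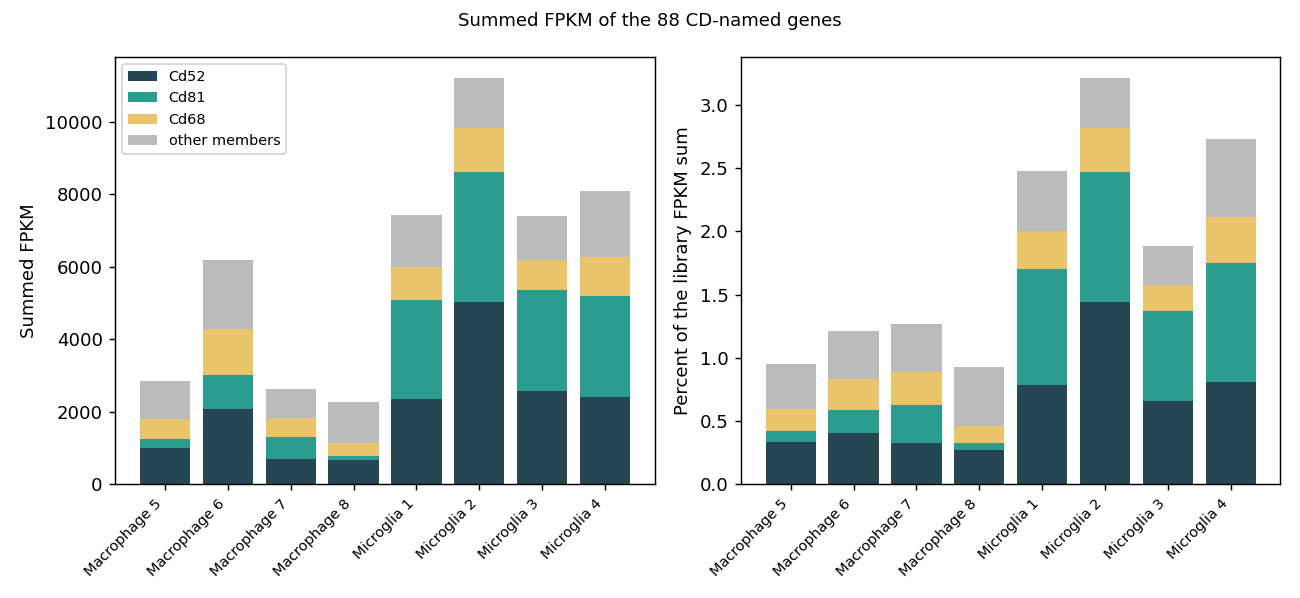
Stacked bars give, for each library, the FPKM of Cd52, Cd81, Cd68 and the other CD-named genes (left) and the same as a percentage of the library's FPKM sum (right). Macrophage bars reach 2250.4 to 6189 FPKM and microglial bars 7396 to 11214, and most of the gap lies in the Cd52 and Cd81 segments.

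By mean FPKM, the order in macrophages was Cd52 (1105 ± 671), Cd68 (668 ± 409), Cd81 (479 ± 358), Cd72 (228 ± 76.2) and Cd48 (152 ± 77.5), and the order in microglia was Cd52 (3081 ± 1291), Cd81 (2979 ± 409.5), Cd68 (1011 ± 177), Cd72 (391 ± 173) and Cd53 (155 ± 28.5; SD, n = 4 each). Neighbours in these orders differed by less than the larger of their SDs, except in microglia from Cd81 to Cd68, from Cd68 to Cd72 and from Cd72 to Cd53. The lower end was long: 26 of the 88 genes stayed under 1 FPKM in every library, 3 of them (Cd6, Cd248 and Cd40lg) listed at 0 throughout, and 27 reached 1 FPKM in every library.

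Over the 45 tested genes the median log2 difference, macrophages minus microglia, was 0.12, beside 0.37 over all genes tested, with 28 positive and 17 negative values. The median over these 45 was below 0 after median-of-ratios scaling (-0.053) and quantile normalization (-0.22), with array weights (-0.22), with the Y-linked term (-0.28), and without macrophage 6 (-0.049), microglia 2 (-0.24) or microglia 2 and 3 together (-0.34). Ranges of the populations did not overlap for 8 of the 45 (17.8%, against 7.63% of all genes tested). Cd40, Cd200 and Cd300e lay higher in every macrophage library (3 of 45, against 5.69% of all genes), and Cd81, Cd37, Cd52, Cd34 and Cd180 lower (5 of 45, against 1.95%). Of the 3 that lay higher, Cd40 alone reached 1 FPKM in any microglial library (microglia 3 and 4). Its 4 macrophage libraries would have sufficed for the filter, so Cd40 is not free of the filter either. An unadjusted p below 0.05 was reached by 14 (31.1%, against 15% of all genes), 7 in each direction, against 11.6% of all genes higher and 3.42% lower. In the exact permutation test with 4 libraries a group, an unadjusted p below 0.05 requires ranges that do not overlap. The 8 of the 45 that reached it were therefore the same 8, beside the same 7.63% of all genes, and are no further result. The smallest p of this test, 0.0286, came to 0.374 after adjustment over all genes, so it could call 0 of the 45. Macrophage 6 held the highest macrophage value for 29 of the 45 genes and macrophage 7 the lowest for 29. After libraries were rescaled to an equal FPKM sum, macrophage 6 was highest for 5 and macrophage 7 lowest for 21.

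**Figure D2:**
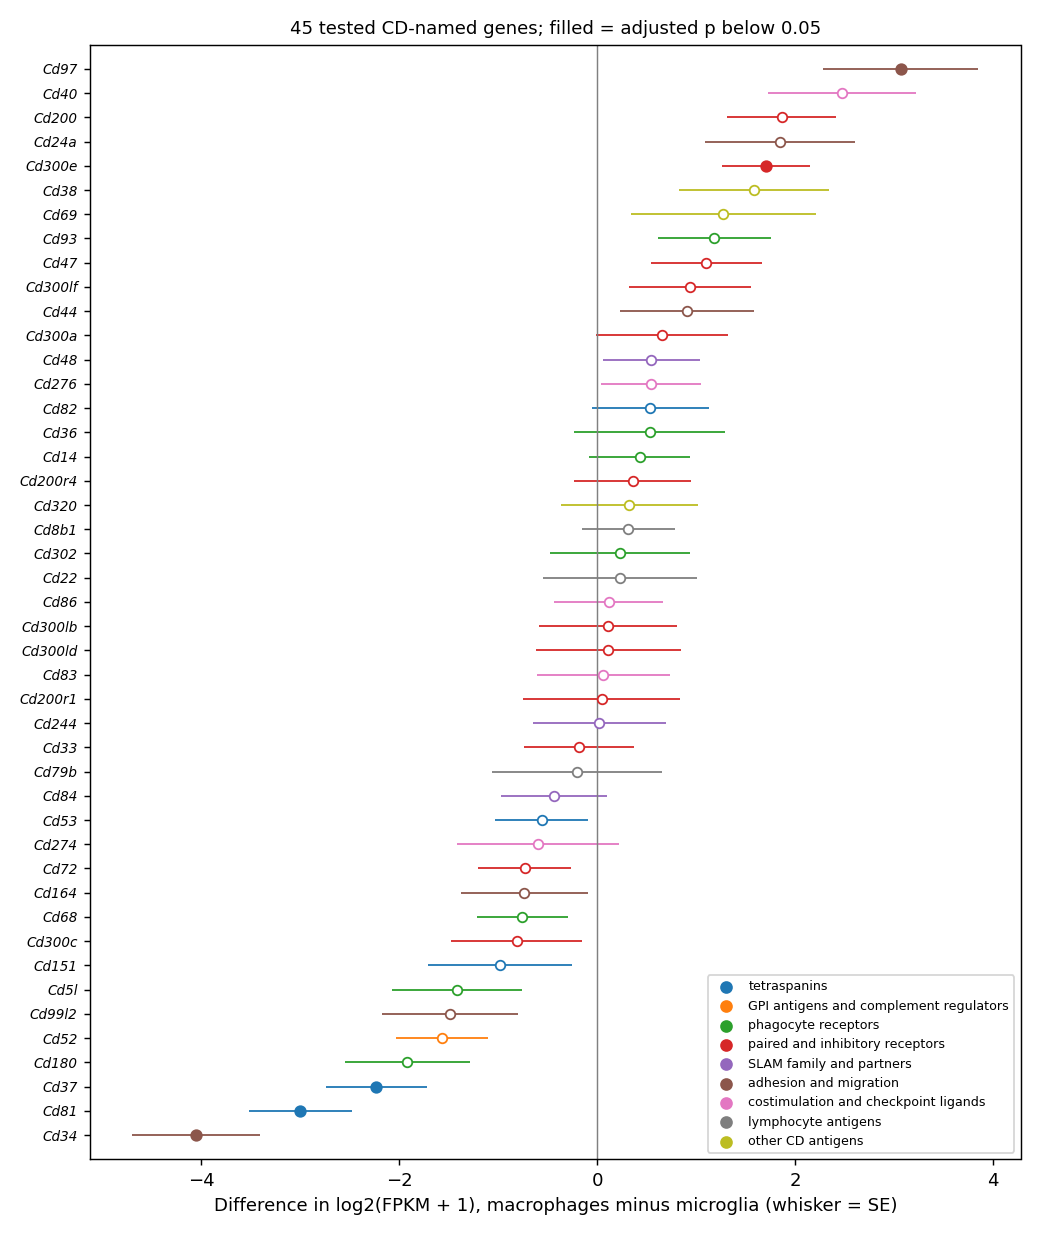
Points give the fitted difference in log2(FPKM + 1), macrophages minus microglia, for the 45 tested CD-named genes, with whiskers for the standard error, colours for the role and filled points for an adjusted p below 0.05. The values run from -4.05 for Cd34 to 3.07 for Cd97, and 5 points are filled.

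Of the 5 tetraspanins counted here, all tested, 2 were called lower (Cd81 and Cd37) and 0 higher, with a list median of -0.98. Over all genes tested, 0.695% were called lower and 1.65% higher, with a median of 0.37. Cd81, a broadly expressed tetraspanin, lies on chromosome 7 (mm9, 150238655 to 150253835). It stood at 249.98, 917, 617 and 132 FPKM in macrophages 5 to 8, against 2746, 3593, 2786 and 2792 in microglia 1 to 4. The highest macrophage library was thus below the lowest microglial one, while macrophages 6 and 7 stood above macrophages 5 and 8. The log2 difference was -3.00 ± 0.52 (SE; limma adjusted p = 0.00111), a mean 6.22 times as high in microglia. With the term for Y-linked expression it was -2.70 and not called (adjusted p = 0.218), nor was it called when no expression filter was set (0.16). The 10 microglial marker genes summed to 1127, 2397, 1373 and 700.3 FPKM in macrophages 5 to 8, the same order of libraries as for Cd81, and the part of these transcripts in Cd81 was not tested.

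Cd37, a tetraspanin found mainly on leukocytes (chromosome 7, mm9, 52489002 to 52494209), stood at 16.5, 25.8, 14.4 and 11.5 FPKM in macrophages 5 to 8 and at 85.4, 92.9, 73.2 and 72.5 in microglia 1 to 4. Each population was narrow and they were well apart. The log2 difference was -2.23 ± 0.51 (adjusted p = 0.0163), and the call was lost without macrophage 5 (0.0666), macrophage 8 (0.0868), microglia 1 (0.067) or microglia 2 and 3 together (0.08), and with the Y-linked term (-2.15, adjusted p = 0.637).

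Other tetraspanins overlapped between populations. Cd53, likewise mainly of leukocytes, averaged 111 ± 53.1 FPKM in macrophages, against 155 ± 28.5 in microglia (log2 difference -0.56 ± 0.47, adjusted p = 0.611). Cd82 averaged 21.2 ± 7.23 in macrophages against 15.4 ± 8.09 in microglia, and Cd151, a partner of laminin-binding integrins, 3.20 ± 2.32 against 7.57 ± 5.51; their adjusted p were 0.721 and 0.56. Within these 5 tetraspanins the log2 differences therefore ran from -3.00 (Cd81) to 0.54 (Cd82). Cd9 and Cd63, tetraspanins too, were among the genes left out by name.

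**Figure D3:**
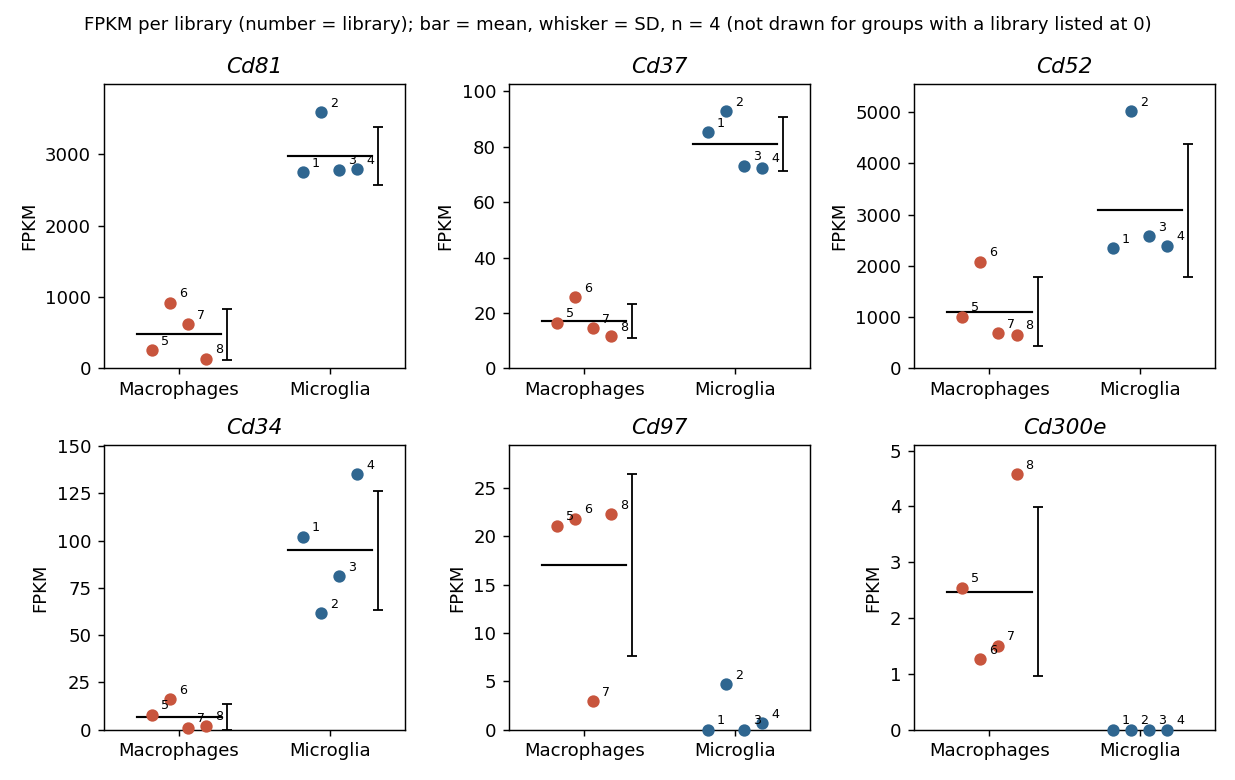
Each panel shows the FPKM of a gene in every library, numbered as in the labels, with a bar for the mean and a whisker for the SD, cut at 0, in groups with no library listed at 0. In Cd81, Cd37, Cd52 and Cd34 every macrophage point lies below every microglial point; in Cd97 macrophage 7 (2.95 FPKM) lies below microglia 2 (4.68), and in Cd300e all microglia are listed at 0.

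Among small antigens anchored by glycosylphosphatidylinositol (GPI) and regulators of complement, 1 of 5 genes was tested, and it was not called. Cd52, a very short glycopeptide that coats leukocytes (chromosome 4, mm9, 133649453 to 133650988), had the highest mean FPKM of the CD-named genes in both populations; in microglia 1, 3 and 4, however, Cd81 stood above it. It stood at 1006, 2082, 680.4 and 651 FPKM in macrophages 5 to 8, against 2341, 5012, 2579 and 2394 in microglia 1 to 4, so the groups did not overlap, although macrophage 6 came close to microglia 1. The log2 difference was -1.57 ± 0.46 (adjusted p = 0.0767). It passed the threshold after each rescaling of the libraries: equal sums (-1.41, adjusted p = 0.0082, where 3.59% of all genes were called), upper quartile (-1.68, 0.00604, 2.93%), median of ratios (-1.84, 0.0191, 2.63%) and quantile normalization (-1.12, 0.019, 3.42%). With array weights it passed too (adjusted p = 0.009), but so did 11.5% of all genes. It also passed without macrophage 6 (-1.93, 0.00909), the library with the largest FPKM sum, but its adjusted p was 1 with the Y-linked term (-1.56). The complement regulators Cd55, Cd59a, Cd59b and Cd46 were low: Cd46 and Cd55 did not exceed 0.365 FPKM in any library, and Cd59a and Cd59b, related neighbours whose levels are uncertain where fragments match both, reached 2.88 and 6.53 in microglia 3.

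Genes of adhesion and migration were called in both directions, 1 higher and 1 lower among 6 tested of 10 measured. The shares over all genes tested were 1.65% higher and 0.695% lower. Cd34 (chromosome 1, mm9, 196765015 to 196787486) stood at 7.99, 16.0, 1.05 and 2.07 FPKM in macrophages 5 to 8, against 102, 61.7, 81.1 and 135 in microglia 1 to 4. Microglia held between 61.7 and 135 FPKM, and no macrophage library exceeded 16.0. This was the largest fall among the CD-named genes (-4.05 ± 0.65, adjusted p = 0.000531; means 14.0 times as high in microglia) and the only one still called with the Y-linked term (-4.72, adjusted p = 0.0141). Of the limma alternatives run, the fit with no expression filter was the only one to lose it (adjusted p = 0.0773). Cd34 also marks endothelium. Together, 8 endothelial genes summed to between 4.45 and 9.81 FPKM in macrophages and between 1.97 and 3.71 in microglia. Of these, Cldn5 was listed at 0 in every library, Cdh5 did not exceed 0.242 FPKM, and Tek and Emcn did not exceed 0.409. Pecam1 stood between 0.507 and 5.31 FPKM over all libraries. The highest values of Kdr, Esam and Flt1 were 4.11 (macrophage 6), 3.64 (macrophage 7) and 1.53 FPKM (microglia 1). The part of endothelial transcripts in Cd34 was not tested.

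Cd97 (chromosome 8, mm9, 86247150 to 86265210), which binds Cd55, stood at 21.1, 21.8, 2.95 and 22.3 FPKM in macrophages 5 to 8. In microglia it was listed at 0 in libraries 1 and 3 and stood at 4.68 and 0.664 FPKM in libraries 2 and 4. Macrophages 5, 6 and 8 agreed closely, and macrophage 7 lay inside the microglial range. The log2 difference was 3.07 ± 0.78 (adjusted p = 0.0336). The call was lost without macrophage 5, 6 or 8 (0.114, 0.129 and 0.135), without microglia 1, 3 or 4 (0.093, 0.0831 and 0.0574), after median-of-ratios scaling (0.0562), with a pseudocount of 0.1 (0.102), with no filter (0.314) and with the Y-linked term (2.40, adjusted p = 1). Macrophage 7 was also the macrophage library with the lowest sum of monocyte genes, 307.5 FPKM against 947.4 to 1904 in the others; the part of that difference in Cd97 was not tested.

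Cd164, a sialomucin of endosomes and the cell surface, averaged 37.2 ± 33.0 FPKM in macrophages, against 46.4 ± 20.2 in microglia (-0.74 ± 0.64, adjusted p = 0.631). Cd44, the hyaluronan receptor, averaged 12.96 ± 4.83 in macrophages and 7.96 ± 7.80 in microglia (adjusted p = 0.564), with microglia 2 alone (19.5) above all macrophage libraries. Cd24a, a mucin-like GPI antigen, was at 8.09, 12.8, 0.0777 and 9.20 FPKM in macrophages 5 to 8 and at 0, 0, 2.37 and 1.44 in microglia 1 to 4 (adjusted p = 0.252). It shared the low value in macrophage 7 with Cd97, and it was called without that library. Cd177, a neutrophil antigen below the filter, stood at 8.68 FPKM in macrophage 6 and 2.85 in macrophage 8 and under 0.2 elsewhere. Macrophage 6 also had the largest neutrophil marker sum, 241.5 FPKM, made up of S100a8 (92.0), S100a9 (81.8), Retnlg (61.3) and Mmp8 (6.30). On the same list, Ngp, Camp and Ltf were listed at 0 in that library and Cxcr2 stood at 0.113 FPKM. Whether neutrophils were the source of Cd177 was not tested. Cd99l2, a relative of the adhesion molecule Cd99, was at 1.44, 0, 1.42 and 0.181 FPKM in macrophages 5 to 8 and at 2.89, 11.2, 7.19 and 0.0945 in microglia 1 to 4 (adjusted p = 0.312). The other untested genes of this role, Cd109, Cd164l2 and Cd248, did not exceed 1.05 FPKM in any library.

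Phagocyte receptors included abundant genes with no call. Of 15 measured, 7 were tested and 0 called by limma. An unadjusted p below 0.05 was reached by 3, 1 higher and 2 lower, against 15% of all genes tested. Cd68, a glycoprotein of macrophage lysosomes, stood at 530.2, 1265, 537 and 338 FPKM in macrophages 5 to 8, against 913, 1224, 827 and 1079.9 in microglia 1 to 4. Macrophage 6 was above every microglial library and the other 3 below (-0.76 ± 0.46, adjusted p = 0.452). Cd14, which passes lipopolysaccharide to Toll-like receptor 4, averaged 125 ± 35.4 FPKM in macrophages, against 100.2 ± 48.5 in microglia (0.43 ± 0.51, adjusted p = 0.742). Its partners Ly96 and Tlr4 were not called either.

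The clearest separation in this role was that of Cd180, a Toll-like receptor relative that pairs with Ly86. It stood at 6.02, 7.71, 2.44 and 4.599 FPKM in macrophages 5 to 8, against 35.2, 30.3, 11.4 and 16.1 in microglia 1 to 4, and the ranges did not overlap. The log2 difference of -1.92 ± 0.63 did not pass (adjusted p = 0.128), nor did it after scaling to equal sums (0.0827) or with the Y-linked term (-1.80, adjusted p = 0.9999). It passed after upper-quartile scaling (0.0424), median-of-ratios scaling (0.0362) and quantile normalization (0.0166). Ly86 itself averaged 441 ± 191 FPKM in macrophages, against 699.95 ± 86.5 in microglia (adjusted p = 0.437). Cd36, a scavenger receptor for oxidised lipids, was at 74.3 FPKM in macrophage 6 and between 7.76 and 12.97 in the other macrophage libraries, against 2.09 to 32.6 in microglia. Cd93, a receptor in the clearance of dying cells, averaged 3.12 ± 1.18 FPKM in macrophages and 0.873 ± 0.808 in microglia, and Cd5l, a secreted macrophage protein, 0.986 ± 0.892 against 4.86 ± 3.63 (adjusted p = 0.329 and 0.311). Cd302, a lectin-like receptor, averaged 21.0 ± 11.01 FPKM in macrophages and 23.6 ± 17.9 in microglia, with microglia 2 far below the rest at 2.52 (adjusted p = 0.917). The 8 untested genes, among them Cd207 and 6 of the Cd209 lectins, did not exceed 1.94 FPKM in any library.

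Paired and inhibitory receptors formed the largest tested role, 12 of 16 genes. Of these 12, 1 was called higher and 0 lower, against 1.65% and 0.695% of all genes tested. The called gene was Cd300e (chromosome 11, mm9, 114913231 to 114923352), at 2.54, 1.26, 1.51 and 4.58 FPKM in macrophages 5 to 8 and listed at 0 in all 4 microglial libraries (adjusted p = 0.0388). All macrophage libraries held it, at a low level, and since these libraries alone brought it past the filter, its direction was fixed by the filter. The call was lost without macrophage 5 or 8 or any single microglial library (adjusted p 0.0697 to 0.146), without microglia 2 and 3 together (0.17), after quantile normalization (0.12), with no filter (0.226), with a pseudocount of 5 (0.0731), with no trend in the fit (0.14) and with the Y-linked term (0.841).

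Cd300e is 1 of 7 Cd300 genes within bases 114751355 to 114995306 of chromosome 11 (mm9), and its neighbours did not share its pattern. The inhibitory receptor Cd300lf stood at 33.3, 76.7, 23.3 and 40.3 FPKM in macrophages 5 to 8 and at 21.3, 5.79, 45.4 and 27.4 in microglia 1 to 4. The inhibitory receptor Cd300a averaged 19.1 ± 10.9 FPKM in macrophages and 10.6 ± 4.85 in microglia. Cd300ld averaged 10.1 ± 5.14 against 11.3 ± 7.24, Cd300lb 4.33 ± 1.53 against 4.69 ± 3.96, and Cd300c 2.54 ± 0.789 against 5.38 ± 1.98, in macrophages and in microglia. All of these ranges overlapped, and their adjusted p lay between 0.496 and 0.965. Cd300lh, outside the roles and below the filter, lay between 0.308 and 0.990 FPKM in macrophages and between 0.774 and 5.19 in microglia. These neighbours are related genes, and their levels are uncertain where fragments match more than 1 of them, which was not measured here.

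**Figure D4:**
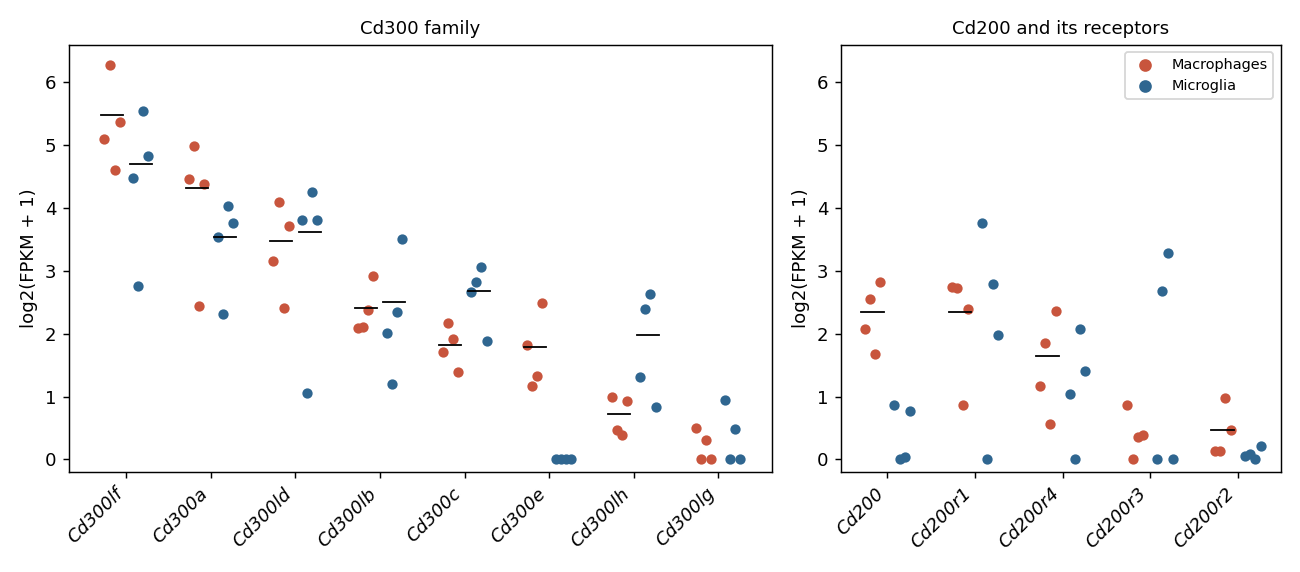
Points give log2(FPKM + 1) in each library for the 8 Cd300 genes (left) and for Cd200 and its receptors (right), macrophages in red beside microglia in blue, with a line at the mean FPKM where no library of the group is at 0. Cd300e and Cd200 are the genes in which every macrophage point lies above every microglial point.

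Cd200 and Cd47 encode ligands that restrain myeloid cells, through Cd200 receptors and through Sirpa. Cd200 stood at 3.19, 4.86, 2.20 and 6.10 FPKM in macrophages 5 to 8 and at 0.813, 0, 0.0254 and 0.706 in microglia 1 to 4, without overlap (adjusted p = 0.0755). Its receptor Cd200r1 overlapped widely, from 0.816 to 5.68 FPKM in macrophages and from 0 to 12.6 in microglia (adjusted p = 0.987). The related Cd200r4 lay between 0.474 and 4.16 FPKM in macrophages and between 0 and 3.20 in microglia (adjusted p = 0.824). Below the filter, Cd200r3 stood at 5.42 and 8.78 FPKM in microglia 2 and 3 and at no more than 0.812 elsewhere, and Cd200r2 and Cd300lg stayed under 1 FPKM. Cd101, an inhibitory receptor also below the filter, lay between 0.497 and 1.74 FPKM in macrophages and between 0 and 0.425 in microglia. Cd47 stood at 54.1, 132, 26.4 and 80.4 FPKM in macrophages 5 to 8, against 24.4, 53.2, 23.2 and 22.1 in microglia 1 to 4 (1.10 ± 0.56, adjusted p = 0.365). Macrophage 7 and microglia 2 were the libraries in which the ranges met. Sirpa averaged 110 ± 40.8 FPKM in macrophages, against 172 ± 38.4 in microglia (adjusted p = 0.525). Cd72, an inhibitory lectin known from B cells, was the most abundant gene of this role, with a mean of 228 ± 76.2 FPKM in macrophages, against 391 ± 173 in microglia (-0.73 ± 0.47, adjusted p = 0.477). The sialic acid lectin Cd33 averaged 26.2 ± 8.81 in macrophages and 32.1 ± 19.1 in microglia (adjusted p = 0.914).

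In the SLAM family, receptors by which leukocytes contact each other, 3 of 4 genes were tested and 0 called by limma or at an unadjusted p below 0.05. Cd48, the ligand of Cd244 in mice, averaged 152 ± 77.5 FPKM in macrophages, against 99.0 ± 28.2 in microglia (0.55 ± 0.49, adjusted p = 0.644). Cd84, which binds itself, averaged 37.6 ± 18.4 and 49.98 ± 18.9 FPKM in macrophages and microglia (adjusted p = 0.753), and Cd244 12.9 ± 7.87 and 12.01 ± 5.60 (adjusted p = 0.991). Cd2, untested, did not exceed 0.0457 FPKM. In contrast, Slamf7, a SLAM member without a CD symbol, and Sh2d1b1, an adaptor of these receptors, were both called higher. Slamf7 stood between 6.34 and 29.7 FPKM in macrophages and at 1.805, 0.192, 0 and 0.267 in microglia 1 to 4 (adjusted p = 0.00545). Sh2d1b1 stood between 23.5 and 61.2 FPKM in macrophages and at 6.18, 0.274, 0 and 5.74 in microglia 1 to 4 (adjusted p = 0.00693).

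Ligands of costimulation and checkpoints comprised 7 genes, of which 5 were tested and 0 called by limma. Against 15% of all genes tested, 1 of the 5 reached an unadjusted p below 0.05. That gene was Cd40, the receptor of the T cell ligand Cd40lg. It was nearly constant in macrophages 5 to 8, at 12.6, 11.9, 11.96 and 13.8 FPKM, and stood at 0.0596, 0, 3.73 and 6.04 in microglia 1 to 4. The ranges did not overlap, and the difference of 2.47 ± 0.75 on the log2 scale had an adjusted p of 0.0842. It was called without microglia 4 and with array weights, and with the Y-linked term it was 1.31 (adjusted p = 0.9999). Cd86, which engages Cd28 on T cells, averaged 39.2 ± 13.2 FPKM in macrophages, against 38.2 ± 16.3 in microglia (0.12 ± 0.55, adjusted p = 0.948). Its relative Cd80 did not exceed 1.92 FPKM in macrophages or 3.11 in microglia. Dendritic cell genes, from cells that also carry these ligands, summed to between 15.1 and 167 FPKM in macrophages and between 2.58 and 25.9 in microglia, and their part in Cd40 was not tested.

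Cd83, a marker of activated antigen-presenting cells, stood at 51.0, 75.7, 68.4 and 88.1 FPKM in macrophages 5 to 8, against 124, 8.37, 129 and 136 in microglia 1 to 4. Every microglial library but microglia 2 was above every macrophage library. Over all libraries the log2 difference was 0.06 ± 0.67 (adjusted p = 0.98), and without microglia 2 it was -0.89 (adjusted p = 0.507). Cd274, the checkpoint ligand PD-L1, was at 3.19, 8.32, 0.0801 and 12.1 FPKM in macrophages 5 to 8 and at 2.02, 5.48, 20.001 and 6.04 in microglia 1 to 4 (adjusted p = 0.785). Cd276, a relative of it, lay between 0.705 and 2.85 FPKM in macrophages and between 0.0809 and 2.104 in microglia (adjusted p = 0.66), and Cd70 did not exceed 0.807 in any library.

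**Figure D5:**
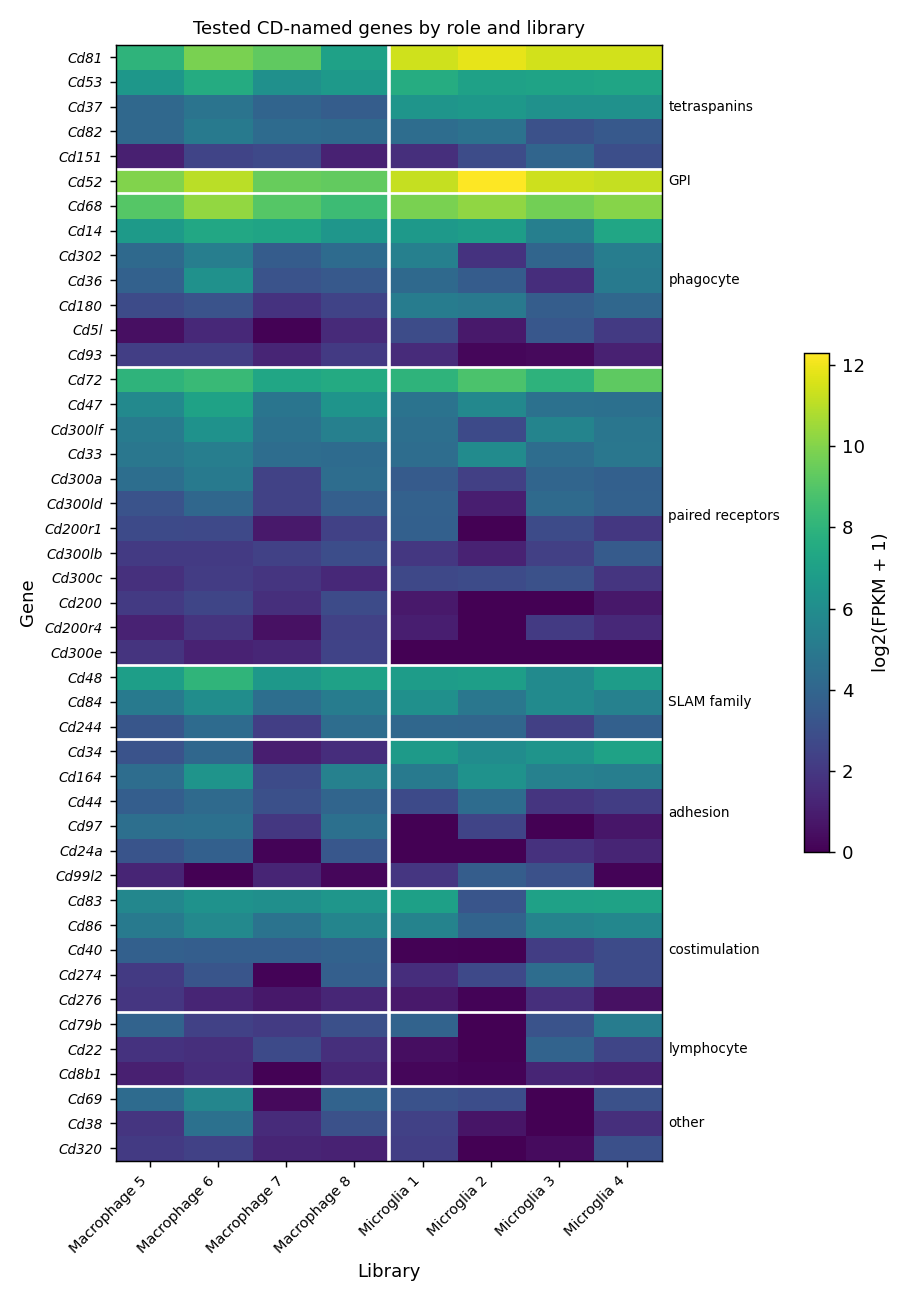
Colour gives log2(FPKM + 1) for the 45 tested CD-named genes (rows, grouped by role and ordered by mean FPKM) in each library (columns, macrophages left of the white vertical line and microglia right of it). Cd81, Cd37 and Cd34 are darker (lower) in every macrophage column, and microglia 2 is darker than the other microglia in Cd83, Cd79b and Cd200r1.

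Antigens of lymphocytes were scarce in every library. Of 20 measured, 14 stayed under 1 FPKM in all 8 libraries, and 3 were tested, of which 0 were called by limma or at an unadjusted p below 0.05. The Cd3 chains of the T cell receptor complex and Cd4 and Cd8a reached at most 1.59 FPKM (Cd3g in macrophage 6). Cd79b, the signalling chain of the B cell receptor, was the exception in level: it stood at 13.9, 4.24, 3.36 and 6.91 FPKM in macrophages 5 to 8 and at 13.9, 0, 7.84 and 34.8 in microglia 1 to 4 (adjusted p = 0.941). Its partner chain Cd79a did not exceed 0.326 FPKM. The 9 B cell marker genes summed to between 19.5 and 44.1 FPKM in macrophages and between 27.97 and 36.4 in microglia. Nearly all of that was Blnk, an adaptor of antigen receptor signalling, at 16.4 to 44.1 FPKM in macrophages and 25.4 to 34.7 in microglia. Of the others, Pax5 did not exceed 0.502 FPKM and Ms4a1 1.46, and Vpreb3 was listed at 0 in every library; the part of B cells in Cd79b and Cd22 was not tested. Cd22, a sialic acid lectin of B cells, lay between 2.13 and 5.85 FPKM in macrophages and between 0.0174 and 14.2 in microglia (adjusted p = 0.927). Cd8b1, a chain of the T cell coreceptor, did not exceed 1.94 FPKM in macrophages or 1.44 in microglia (adjusted p = 0.804). T cell marker genes summed to between 0.481 and 4.65 FPKM in macrophages and between 2.23 and 24.7 in microglia, and those of NK cells to between 0.505 and 5.09 and between 0.406 and 2.16. Cd7 was listed at 0 in all microglia and stood at 1.21, 0, 3.99 and 2.98 FPKM in macrophages 5 to 8, below the filter.

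Of the remaining 5 genes, 3 were tested and 0 called by limma, with Cd38 at an unadjusted p of 0.0488. Cd69, a lectin induced early in activation, stood at 18.9, 48.7, 0.236 and 13.8 FPKM in macrophages 5 to 8, against 7.62, 6.40, 0 and 7.38 in microglia 1 to 4 (adjusted p = 0.559). Macrophages 5, 6 and 8 thus exceeded all microglia, and macrophage 7 was near 0. Cd38, an enzyme that consumes NAD, stood at 2.78, 22.9, 1.86 and 7.32 FPKM in macrophages 5 to 8 and at 4.11, 0.638, 0.0102 and 2.14 in microglia 1 to 4 (adjusted p = 0.33). The lipid-presenting Cd1d1 and Cd1d2, near-identical genes whose levels cannot be separated with confidence, did not exceed 3.67 FPKM. Cd320, the receptor for transcobalamin, lay between 1.29 and 4.23 FPKM in macrophages and between 0 and 6.99 in microglia (adjusted p = 0.867).

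Among genes that work with these antigens, or carry a CD number under another symbol, 6 were called higher in macrophages and 0 lower. Over all genes tested 1.65% were called higher and 0.695% lower, with a median of 0.37. Of 26 partners 24 were tested, with 2 called higher (Myd88 and Sh2d1b1) and 0 lower, and a median of 0.17. Myd88, the adaptor of most Toll-like receptors, averaged 49.9 ± 31.9 FPKM in macrophages and 8.63 ± 6.84 in microglia (log2 difference 2.53; adjusted p = 0.0413). The adaptors Tyrobp and Fcer1g, through which activating Cd300 receptors signal, averaged 1520 ± 747 and 1079 ± 546 FPKM in macrophages, against 3948 ± 2035 and 2222 ± 863 in microglia (adjusted p = 0.152 and 0.282). Spp1, a ligand of Cd44, averaged 1489.7 ± 948 FPKM in macrophages, against 591 ± 430.2 in microglia (adjusted p = 0.256). Of 44 CD antigens with other symbols 37 were tested, and 4 were called higher (Itgax, Itga4, Nt5e and Slamf7) and 0 lower, with a median of 0.35. Itga4 and Nt5e passed the filter through macrophages alone, and without genes of that kind 2 of 34 were called higher. Over all genes, without those that passed through 1 population alone, 1.01% of 9213 were called higher. The 2 were Itgax and Slamf7, and among microglia Slamf7 reached 1 FPKM in microglia 1 alone. For Slamf7 the 4 macrophage libraries would have sufficed for the filter, so this count is not free of the filter. Itgax (CD11c), an integrin of dendritic cells and some macrophages, averaged 52.1 ± 10.6 FPKM in macrophages and 5.75 ± 4.05 in microglia (log2 difference 3.13; adjusted p = 0.00277). Itga4, an integrin that is also on the monocyte list, lay between 1.62 and 8.04 FPKM in macrophages and between 0.0373 and 0.564 in microglia (log2 difference 2.16; adjusted p = 0.0385). Nt5e (CD73), an enzyme that makes adenosine, stood between 2.05 and 2.62 FPKM in macrophages and between 0 and 0.302 in microglia (adjusted p = 0.0484). The most abundant of these, Lamp1, Csf1r and Fcgr3, were not called. The lysosomal Lamp1 averaged 409 ± 176 FPKM in macrophages and 568 ± 40.5 in microglia, and the Fc receptor Fcgr3 202 ± 136 against 358 ± 98.7 (limma adjusted p = 0.583 and 0.345). Csf1r, the receptor on which both populations depend, averaged 243 ± 79.4 FPKM in macrophages, against 293 ± 64.4 in microglia (adjusted p = 0.805).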

How the data were processed

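Messenger RNA of 4 macrophage and 4 microglial libraries was compared. The submitters' processing notes name bcl2fastq 1.8.4, Cufflinks 2.1.1 and the mm9 build; the aligner, annotation and strandedness were not given in the sources used here. The deposited tables hold, per the file headers, 1 FPKM value per gene made by the authors. FPKM are no counts, so no count test was run, and they correct for length and depth but not for composition. An exact 0 can be a failed estimate: 9 symbols marked FAIL, none of them CD-named, were left out. Values of rows with the same symbol were added up. For 9352 genes past the filter, limma 3.58.1 (R 4.3.3) was fitted to log2(FPKM + 1) with a trend and no covariate, two-sided, with Benjamini-Hochberg adjustment. Differences are macrophages minus microglia and understate changes of low genes. Depth was estimated from single-transcript genes of at least 800 bases, assuming fragments of 150 bases, and no test used it.

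The CD-named genes, roles and lists were chosen with earlier results of these data known. By rule, the text names called genes, the 10 highest by mean FPKM and the 2 highest tested of each role (20 in all), and from the 2 lists of other genes the called and the 3 most abundant. Other genes given with values were picked after their values were seen. Alternatives were other pseudocounts, filters and scalings, the highest row per symbol, no trend, array weights, a Y-linked covariate, left-out libraries and an exact permutation test, whose smallest p with 4 libraries a group is 0.0286. Tables and figures were made with matplotlib 3.10.9, numpy 2.4.6 and pandas 2.3.3 in Python 3.11.15.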

Additional observations from a re-analysis of the deposited data

Results flagged for a closer look

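Within a group of 4 libraries, 1 value stood far from the other 3 (by Dixon's test at the 95% level, on the log2 scale) in 9 of the 42 groups looked at; chance flags about 1 in 20 groups. Macrophage 7 was apart from the other macrophages in Cd97 (2.95 FPKM against 21.1 to 22.3) and in Cd22 (5.85 against 2.13 to 2.48). Microglia 2 was apart in 5 genes, above the other microglia in Cd52 (5012 FPKM against 2341 to 2579), Cd81 (3593 against 2746 to 2792) and Cd47 (53.2 against 22.1 to 24.4), and below them in Cd83 (8.37 against 124 to 136) and Cd86 (14.3 against 43.6 to 50.6). Microglia 3 was below the other microglia in Cd48 (57.1 against 109 to 118) and was listed at 0 in Cd69, against 6.40 to 7.62. Microglia 2 also held the fewest genes at 1 FPKM or more, 5992, and its part in these values was not tested.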

How the results depend on the processing

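Calls over all genes (219) became 136 with a pseudocount of 0.1, 50 with no filter, 132 with a filter of 5 FPKM, 336 after scaling to equal sums, 1075 with array weights, 25 with the Y-linked term, 0 in the exact permutation test (714 at an unadjusted p below 0.05; 1402 by limma) and 119 to 258 without 1 library. CD-named genes called higher (2) became 1 with a pseudocount of 0.1 or 5, median-of-ratios scaling, quantile normalization, no trend, or without microglia 2 and 3, 0 with no filter, a filter of 5 FPKM, the Y-linked term or the permutation test, 6 with array weights and 0 to 3 without 1 library. Those called lower (3) became 1 with no filter or the Y-linked term, 5 after upper-quartile or median-of-ratios scaling, 6 after quantile normalization or with array weights, 0 in the permutation test (8 at an unadjusted p below 0.05) and 2 to 4 without 1 library. The permutation test could call 0 genes: its smallest p, 0.0286, came to 0.374 after adjustment over all genes. The causes of the other changes were not tested. The median over CD-named genes (0.12) lay between -0.34 and 0.45 over the alternatives, within 1 SD of the macrophage libraries (0.54), and that of all genes moved between -0.03 (quantile normalization) and 0.58 (pseudocount of 0.1), at 0.47, 0.27 and 0.17 under the other scalings. Equal sums, upper-quartile and median-of-ratios scaling and quantile normalization gave 72.6%, 59.5%, 55.3% and 53.4% of calls higher, against 70.3%.

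For the 20 named genes, 367 of 436 values under 22 alternatives kept direction and side of the threshold. Of the rest, 35 lost a call, 7 gained one and 27 changed sign. The lost calls include those in the permutation test, which could keep none. No called gene changed sign. With the Y-linked term the sign changed for Cd14 (-0.071), Cd83 (-0.35), Cd86 (-0.28), Cd69 (-0.070) and Cd22 (-0.17). Without microglia 2 and 3 it changed for Cd14 (-0.011), Cd83 (-0.89) and Cd86 (-0.32). Cd83 was also negative with a pseudocount of 5 (-0.018), upper-quartile (-0.043) and median-of-ratios scaling (-0.19) and array weights (-0.87), Cd86 with median-of-ratios scaling (-0.14) and array weights (-0.29), and Cd22 with a pseudocount of 5 (-0.077) and quantile normalization (-0.37); Cd79b was positive with a pseudocount of 0.1 (0.48). Without 1 library, values ran from -0.89 to 0.40 for Cd83, -0.29 to 0.31 for Cd86, -1.22 to 0.50 for Cd79b and -0.34 to 0.96 for Cd22. No paired analysis was possible because the groups share no library number.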
